A study of Mus musculus with 20 samples.

Results

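Differentiated C2C12 myotubes exposed to 100 µM H2O2 were set against untreated myotubes, using the 4 arrays whose titles give the 100 µM dose and the 4 whose titles give 0 µM, 8 of the 20 arrays in the series. C2C12 is an established mouse myoblast line whose cells fuse into multinucleated myotubes when serum is lowered. Per the design text both groups were differentiated for 96 h and then kept for 2 h in medium with 0.5% horse serum, with H2O2 in the 100 µM group and none in the 0 µM group. Total RNA was hybridised to Affymetrix Mouse Genome 430A arrays, on which a gene is read by 1 or more sets of short oligonucleotide probes. The line is a single clonal lineage in culture, the exposure covers 1 time point, and the labels do not say whether the replicates were separate cultures, so the p-values cover only how far these samples differ from each other, and part or all of that may be technical. The arrays titled replicate 1 stood apart from replicates 2 to 4 and were treated as a batch, with the 0 µM and the 100 µM group each holding 1 of them.

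H2O2 is a membrane-permeable oxidant that cells also make themselves, and working muscle produces it during contraction. Oxidation of cysteines on KEAP1 frees the transcription factor NRF2, which with small MAF partners binds antioxidant response elements and drives enzymes that make glutathione, recycle thioredoxin and break down haem. Oxidant damage to DNA can stabilise p53, which induces its own inhibitor and genes of growth arrest and cell death, and several stresses converge on ATF4, the transcription factor of the integrated stress response, through phosphorylation of the translation factor eIF2.

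The deposited signals of the 8 arrays had medians of 170.0 to 184.9 in the untreated group and 163.3 to 175.5 at 100 µM. The log2 ratio of 3' to 5' probe sets, a sign of RNA integrity, ran from -0.36 to -0.30 for Gapdh without H2O2 and from -0.33 to -0.18 with it. The -0.18 was replicate 1, and replicates 2 to 4 at 100 µM had -0.33 to -0.30. For Actb untreated replicate 1 had -0.11, and all other arrays had 0.10 to 0.19. The first principal component of the 8 arrays, 44.6% of the variance, placed both replicate 1 arrays at 48.0 and 28.0 and the other 6 between -16.7 and -9.06. The second component, 20.7% of the variance, placed the untreated arrays between -20.6 and -8.14 and the 100 µM arrays between 3.36 and 33.3. All 17 myotube markers, among them Myog, Ckm, Acta1 and Myh3, lay above the dim-signal filter on all 8 arrays, and none of the 17 passed the limma test between the groups (5 lay higher at an unadjusted p under 0.05). Their summed signal was 95268 to 117081 in untreated arrays and 110569 to 128686 at 100 µM. Their median log2 difference was 0.14, or 0.04 after quantile normalization and 0.22 with median centring. Of the leukocyte, adipocyte and bone or cartilage markers on the array, 8 of 14, 6 of 9 and 5 of 8 lay under the filter on all 8 arrays.

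After 2 h at 100 µM, the rises included genes of the NRF2, p53 and ATF4 programmes such as Hmox1, Mdm2 and Ddit3, and the falls included the receptor feedback inhibitor Spry1, the secreted factor Bmp4, the myogenic factor Myod1 and 9 of 46 genes of mitosis. The limma fit, with replicate 1 as a batch, called 179 genes higher (2.19% of the 8163 genes tested) and 157 lower (1.92%) at an adjusted p under 0.05, 336 in all (4.12%). Counted as probe sets, 271 of 14387 rose (1.88%) and 266 fell (1.85%). Changes are given as log2 differences, 100 µM minus 0 µM, with the standard error (SE) of the fit and n = 4 arrays per group, and adjusted p-values are limma's. The median log2 difference over all tested genes was -0.02. Rises were larger than falls. The median called rise was 0.54 and the median called fall -0.42, and 29 genes rose by more than 1 log2 unit against 1 that fell by that much. Separation of the arrays followed the calls in part. In 144 of the 179 rises all 4 arrays at 100 µM lay above all 4 untreated arrays, a pattern seen in 353 of all tested genes (4.32%), and in 114 of the 157 falls they all lay below, against 426 of all genes (5.22%). Where several probe sets of a gene were tested, 41 of 73 rises and 65 of 76 falls rested on a single called probe set, among them Aars, Cdkn1a, Cdt1 and Mt1 (1 of 2 each) and Ier5, Kif2c and Rasa1 (1 of 3 each).

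**Figure D1:**
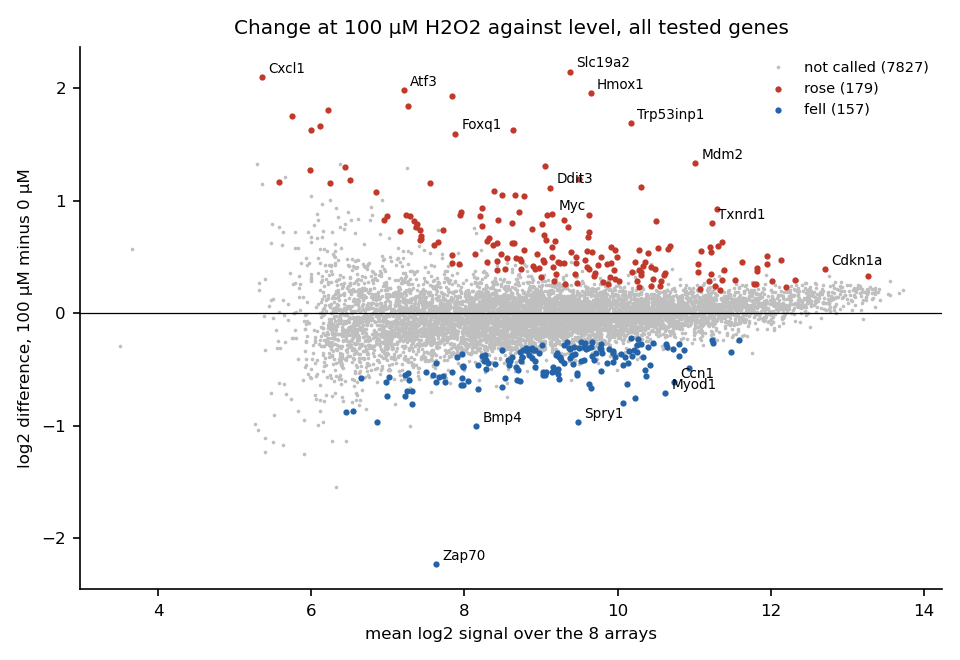
Log2 difference between 100 µM and 0 µM (vertical axis) against mean log2 signal over the 8 arrays (horizontal axis) for 8163 genes, with 179 rises in red, 157 falls in blue and the other genes in grey. Rises reach 2.15 (Slc19a2), while Zap70 at -2.23 is the only fall beyond 1 log2 unit.

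The number of falls was less stable than that of rises. Median centring of the arrays gave 349 rises and 74 falls among probe sets (82.5% rises, against 50.5%), or 224 (2.74%) and 45 (0.551%) of the genes. Quantile normalization gave 317 and 184 probe sets (63.3% rises), or 200 (2.45%) and 112 (1.37%) of the genes. Without the batch term 81 genes rose (0.992%) and 33 fell (0.404%). Without the 100 µM replicate 1 array 149 probe sets rose and 107 fell, against 271 and 266 with all arrays. The count of falling probe sets also moved by more than 1.5 times without untreated replicate 1 (136), 2 (167), 3 (163) or 4 (128) and without 100 µM replicate 2 (169) or 4 (144).

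Slc19a2, a transporter that brings thiamine into the cell, led the rises. Its signal was 354, 284, 282 and 350 on untreated replicates 1 to 4 and 1886, 1391, 1139 and 1275 at 100 µM. The log2 difference was 2.15 (SE 0.11, adjusted p = 9.59e-11), every 100 µM array lay far above every untreated array, and both of its probe sets were called. Of 13 tested genes for thiamine and other vitamins, Slc19a2 and Coasy, which makes coenzyme A, rose and Pank1, the kinase that starts coenzyme A synthesis, fell (median over the 13 genes -0.08, turning to 0.002 with median centring and 0.02 with quantile normalization). Coasy rose by 0.39 (adjusted p = 0.0322), and its call ended without untreated replicate 1 (0.14), 2 (0.0654) or 3 (0.059) or 100 µM replicate 1 (0.153), 2 (0.0764) or 4 (0.0619). Coasy was also lost within replicates 2 to 4 (0.215) and without the batch term (0.127). Pank1 fell by 0.74 (0.0112) on 1 of its 2 probe sets, and its call ended without untreated replicate 1 (0.0578) or 100 µM replicate 1 (0.0656). Pank1 was also lost within replicates 2 to 4 (0.0905).

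Several genes of the NRF2 system rose. Of 10 tested members of the list of NRF2, its partners and repressors, which also holds Osgin1, 6 rose and none fell. Their median log2 difference was 0.33. Osgin1, an oxidative stress-induced growth inhibitor, read 193, 69, 103 and 137 without H2O2 and 525, 457, 424 and 391 with it, a rise of 1.93 (SE 0.19, adjusted p = 1.48e-06) with no overlap. Mafg, a small MAF partner of NRF2, read 396, 599, 508 and 510 and then 843, 863, 851 and 842, so the treated arrays were nearly equal. Mafg rose by 0.77 (SE 0.09, adjusted p = 1.8e-05). Bach1, a repressor that competes with NRF2 at the same elements, rose by 0.54 (SE 0.07, adjusted p = 2.39e-05) on 1 of its 2 probe sets. Maff, another small MAF, rose by 0.77 (0.0103), but replicate 4 read 315 without and 313 with H2O2, and the call ended without untreated replicate 1 (0.0583) or 100 µM replicate 1 (0.0709) and within replicates 2 to 4 (0.0793). Nfe2l2, which encodes NRF2 itself, rose from 1630, 2009, 1885 and 1996 to 2579, 2436, 2399 and 2265, by 0.37 (SE 0.07, adjusted p = 0.00576). Keap1, its cytoplasmic inhibitor, had a log2 difference of 0.15 and did not pass (0.544).

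Among antioxidant enzymes, Hmox1, Srxn1, Txnrd1, Gclc and Gclm rose, while most tested members of their lists were not called. Hmox1, haem oxygenase 1, which degrades haem to biliverdin, iron and carbon monoxide, read 484, 376, 422 and 359 in untreated myotubes and 1638, 1288, 1762 and 1683 at 100 µM. Its log2 difference was 1.96 (SE 0.12, adjusted p = 8.9e-10), the only call among 16 tested genes of haem and iron. Srxn1, the sulfiredoxin that restores over-oxidised peroxiredoxins, read 529, 267, 304 and 304 and then 833, 836, 836 and 833. The 4 treated arrays were nearly equal, and untreated replicate 1 was the highest of its group but still below all treated arrays. Srxn1 rose by 1.30 (SE 0.12, adjusted p = 6.97e-07), and 3 of its 4 probe sets were called, the fourth having a log2 difference of -0.43 (adjusted p = 0.727). Txnrd1, the reductase that recharges thioredoxin with NADPH, rose from 1818 ± 76 to 3188 ± 332 (SD, n = 4), by 0.80 (SE 0.08, adjusted p = 1.05e-06), with 2 of 3 probe sets called. Srxn1 and Txnrd1 were the only calls among 12 tested thioredoxins, peroxiredoxins and their partners (median 0.04).

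Of 10 tested genes of glutathione synthesis and breakdown 4 rose and none fell, with a median of 0.28. Gclc, the catalytic subunit of the rate-limiting ligase, read 701, 496, 577 and 587 and then 1045, 1174, 1135 and 939, a rise of 0.87 (SE 0.12, adjusted p = 0.000106) on the brighter of its probe sets. The other had 0.44 (0.0723). Gclm, the modifier subunit, rose by 0.86 (SE 0.15, adjusted p = 0.00181), and Slc3a2, the heavy chain that carries the cystine and large neutral amino acid exchangers, by 0.63 (SE 0.07, adjusted p = 1.36e-05). Chac1, which cleaves glutathione and so acts in the opposite direction, rose from 961, 819, 763 and 898 to 2520, 1802, 1570 and 1714, by 1.13 (SE 0.08, adjusted p = 2.67e-08). All 4 of these genes were separated between the groups.

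Conjugation and NADPH supply changed at few genes. Gsta4, a glutathione transferase for lipid peroxidation products, rose from 251 ± 39 to 518 ± 55 (SD, n = 4), by 1.05 (SE 0.11, adjusted p = 4.2e-06), as the single call among 12 transferases. Of 17 genes of NADPH supply and quinone reduction, Pgd, Me1 and Cbr3 rose, by 0.44, 0.28 and 0.49 (adjusted p = 0.0148, 0.0231 and 0.0248), and none of the 3 was called without the batch term (0.0764, 0.637 and 0.105). Me1 was called on 1 of its 2 probe sets, the other having 0.03 (0.966), and was not called within replicates 2 to 4 (0.0583). Me1 was also lost without untreated replicate 2 (0.0808) or 3 (0.0621) or 100 µM replicate 1 (0.0895) or 4 (0.0622), and Cbr3 without untreated replicate 2 (0.0798) or 3 (0.0805) or 100 µM replicate 2 (0.0808), 3 (0.0506) or 4 (0.0927). Nqo1, a quinone reductase widely used as a marker of NRF2 activity, read 317, 346, 292 and 266 without H2O2 and 363, 348, 353 and 363 with it. All 4 treated arrays lay above all 4 untreated ones by little, and the log2 difference of 0.23 did not pass (SE 0.13, adjusted p = 0.367). None of 8 tested genes of superoxide and peroxide removal passed in limma (1 higher and 1 lower at an unadjusted p under 0.05), and Cat, catalase, had a log2 difference of 0.11 (adjusted p = 0.494). Of 15 tested metallothioneins and zinc transporters Mt1 alone rose, by 0.30 (adjusted p = 0.00878), and not without the batch term (0.575).

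**Figure D2:**
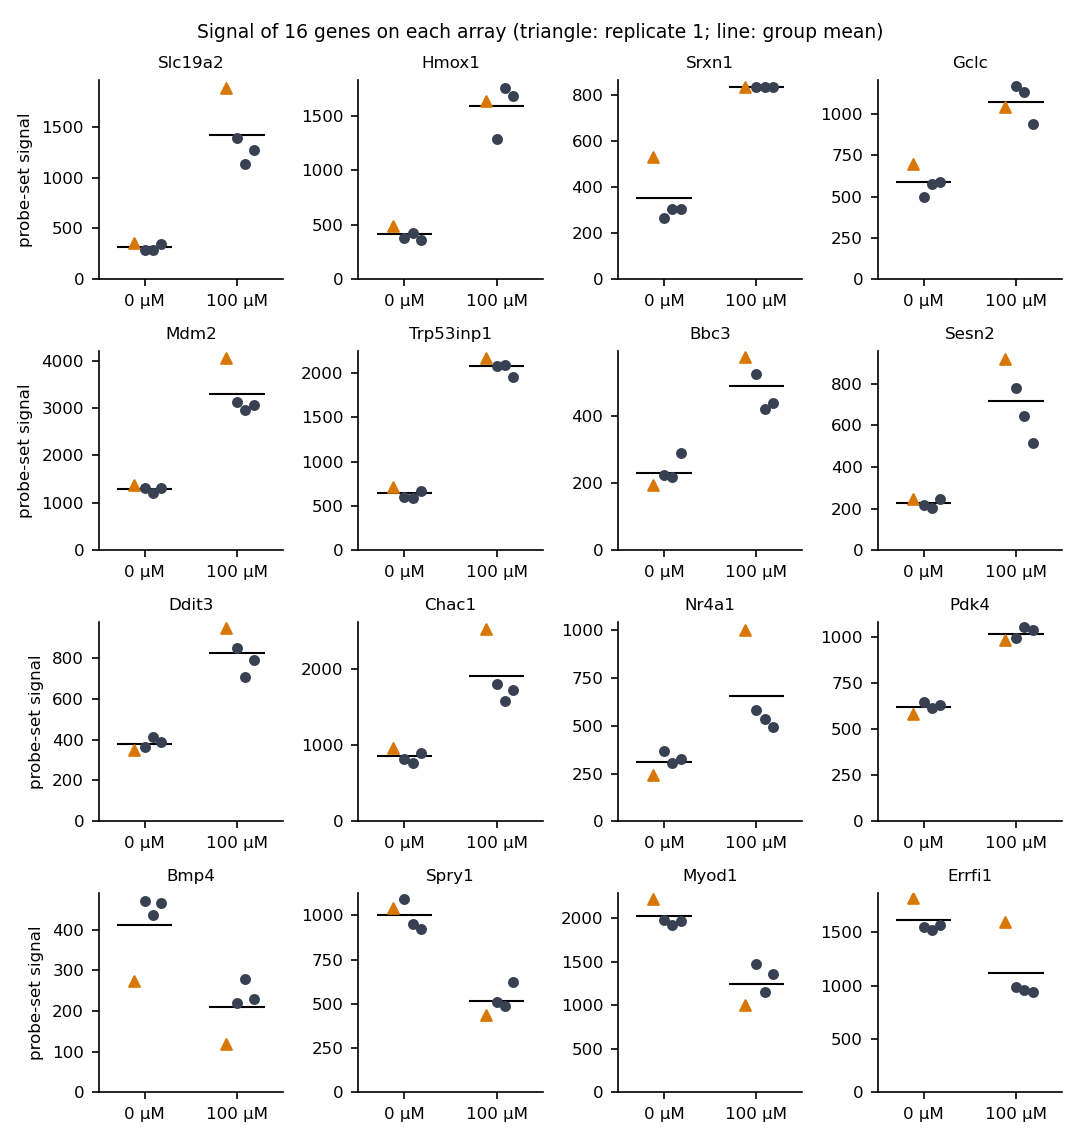
Signal of 16 genes on each of the 8 arrays, linear scale from 0, with untreated arrays left and 100 µM arrays right in each panel, triangles for replicate 1, circles for replicates 2 to 4 and a line for the group mean (n = 4). The 4 treated arrays of Srxn1 read 833 to 836, and those of Nr4a1 read 1005 in replicate 1 against 495 to 585 in the others.

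The antioxidant response element was searched as TGACNNNGC on both strands of the 250 bases before the RefSeq start site. It was found in 25 of 146 called rises with a promoter sequence (17.1%), in 26 of 133 falls (19.5%), in 914 of 6662 tested genes (13.7%) and in 3112 of 27025 genes of the whole table (11.5%). The letters can overlap an AP-1 site. The windows below are those of the glutathione, thioredoxin and NRF2-partner genes described above that hold it, printed 5′ to 3′ on the gene's strand with the match in capitals and 25 flanking bases where the promoter window reaches so far (RefSeq, GRCm38.p6). In order they lie at chr3:122245398-122245456 (plus strand), chr10:82859089-82859147 (plus), chr15:79346484-79346542 (plus), chr11:120633736-120633794 (minus) and chr2:75704870-75704913 (minus).
Gclm: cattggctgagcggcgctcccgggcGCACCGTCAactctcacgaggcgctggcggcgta
Txnrd1: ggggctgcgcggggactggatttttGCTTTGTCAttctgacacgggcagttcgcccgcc
Maff: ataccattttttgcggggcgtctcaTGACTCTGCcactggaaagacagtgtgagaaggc
Mafg: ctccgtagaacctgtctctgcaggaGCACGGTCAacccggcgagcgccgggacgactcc
Nfe2l2: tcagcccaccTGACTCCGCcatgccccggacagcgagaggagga
The match starts 134 (Gclm), 92 (Txnrd1), 112 (Maff), 222 (Mafg) and 240 (Nfe2l2) bases before the start site, and in Gclm, Txnrd1 and Mafg it reads on the opposite strand. A match is a description of letters and not a measured site.

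Many of the genes that p53 is known to induce rose. Of 20 tested genes of p53 feedback and growth arrest 11 rose and none fell, with a median of 0.40 and 19 of the 20 differences above 0. Mdm2, the ubiquitin ligase that degrades p53, read 1365, 1320, 1200 and 1314 without H2O2 and 4055, 3130, 2956 and 3056 with it, a rise of 1.33 (SE 0.11, adjusted p = 2.24e-07). Trp53inp1, a nuclear protein that promotes p53 phosphorylation, rose from 711, 606, 589 and 671 to 2171, 2077, 2098 and 1961, by 1.69 (SE 0.12, adjusted p = 1.17e-08). Both genes had all their tested probe sets called, and the treated arrays of each lay well above the highest untreated one. Btg2, an antiproliferative cofactor of mRNA deadenylation, rose by 1.19 (SE 0.14, adjusted p = 2.14e-05) and Psrc1, a spindle-associated p53 target, by 1.05 (SE 0.10, adjusted p = 1.12e-06). Ccng1, cyclin G1, rose by 0.40 (SE 0.07, adjusted p = 0.00195). Cdkn1a, the p21 inhibitor of cyclin-dependent kinases and one of the brightest genes named, read 4415, 6755, 6558 and 5864 and then 6819, 7906, 8268 and 7562. Untreated replicate 2 lay close under treated replicate 1, and the rise of 0.39 (SE 0.08, adjusted p = 0.00412) was not called without the batch term (0.0985).

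Of 19 tested genes in the list of p53 targets in cell death, which also holds the polymerase gene Polk, 6 rose and none fell. Their median was 0.21. Median centring called 10 of them. Bbc3, the BH3-only killer protein PUMA, read 195, 224, 217 and 289 and then 575, 525, 420 and 438, a rise of 1.09 (SE 0.13, adjusted p = 1.66e-05) with no overlap. Polk, a translesion DNA polymerase, rose by 0.94 (SE 0.15, adjusted p = 0.000481) on 1 of its 2 probe sets, the other having 0.57 (0.0764). Fas, the death receptor, and Pidd1, a death-domain protein of the caspase-2 complex, rose from dim signals of 33 to 85 and 62 to 91, by 1.30 (0.0176) and 1.07 (0.0113). The call of Fas ended without the batch term (0.0826), within replicates 2 to 4 (0.073), and without untreated replicate 2 (0.0646) or 100 µM replicate 1 (0.0594) or 2 (0.0653), and that of Pidd1 within replicates 2 to 4 (0.0768) and without untreated replicate 1 (0.0605) or 100 µM replicate 1 (0.0753). Pmaip1, the related killer NOXA, read 1443 to 1546 without H2O2 and 1536 to 1705 with it, and its log2 difference of 0.13 did not pass (adjusted p = 0.398). In the BCL2 family of 13 tested genes Bbc3 and Bcl2l11, the killer BIM, rose.

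Inhibitors of mTOR, the growth kinase, were mixed. Sesn2, sestrin 2, which lowers mTOR complex 1 activity under stress, read 244, 215, 201 and 247 and then 921, 781, 644 and 514, a rise of 1.63 (SE 0.21, adjusted p = 3.89e-05). Ddit4, known as REDD1, rose from 1097 ± 150 to 1926 ± 206 (SD, n = 4), by 0.82 (SE 0.08, adjusted p = 1.29e-06), and its relative Ddit4l by 1.63 (SE 0.34, adjusted p = 0.00702) from 78, 20, 33 and 33, under the filter level, to 92 to 171. Tsc1, a subunit of the complex that holds mTOR inactive, fell by 0.37 (adjusted p = 0.0397), a call that ended with replicate number as a block (0.0548), with median centring (0.167) and without any 1 of the 8 arrays (0.0514 to 0.134). Tsc1 was also lost within replicates 2 to 4 (0.0558) and without the batch term (0.0811). Its other probe set had 0.31 (0.594). The median over the 12 tested genes was -0.10, and 4 of the 12 differences were above 0.

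The p53 binding site consists of a pair of ten-letter parts, and 1 such part, searched by its consensus (the p53 half-site) on both strands, occurred in 13 of 146 called rises (8.90%), 10 of 133 falls (7.52%), 475 of 6662 tested genes (7.13%) and 2216 of all 27025 (8.20%). Those of 3 feedback genes are shown with the match in capitals, at chr17:29090903-29090962 (plus strand), chr10:117710910-117710969 (minus) and chr11:40755437-40755496 (minus), in RefSeq's GRCm38.p6.
Cdkn1a: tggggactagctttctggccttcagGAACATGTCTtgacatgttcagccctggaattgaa
Mdm2: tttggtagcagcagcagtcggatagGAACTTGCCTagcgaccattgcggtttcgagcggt
Ccng1: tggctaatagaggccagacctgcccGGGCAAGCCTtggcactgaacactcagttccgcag
They start 51 (Cdkn1a), 186 (Mdm2) and 185 (Ccng1) bases before the start site, and a second match in Cdkn1a, left in lower case in the window above, starts 73 bases before it.

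Regulators of the integrated stress response rose at 7 of 19 tested genes and fell at none, with a median of 0.22. Ddit3, the transcription factor CHOP, read 349, 364, 412 and 391 without H2O2 and 946, 851, 709 and 793 with it, a rise of 1.12 (SE 0.10, adjusted p = 2.37e-07). Atf3, a stress-induced repressor and a member of the FOS and JUN relatives too, rose from 99, 103, 56 and 54, only 1 of them above the filter level, to 458, 286, 298 and 194. The rise was 1.98 (SE 0.31, adjusted p = 0.000554), and the lowest treated array lay above the highest untreated one in both genes. Ppp1r15a, the GADD34 subunit that reverses eIF2 phosphorylation, rose by 0.87 (SE 0.12, adjusted p = 0.000114), and Trib3, a pseudokinase that restrains ATF4, by 0.79 (SE 0.12, adjusted p = 0.000293) on 1 of its 2 probe sets, the other having 0.24 (0.446). Nupr1, a stress-induced chromatin protein, rose by 0.57 (SE 0.09, adjusted p = 0.000501). Atf4 itself read 2818, 4276, 4182 and 4143 and then 5495, 5085, 5570 and 4984, a rise of 0.47 (SE 0.10, adjusted p = 0.0086) that was not called without 100 µM replicate 1 (0.0577). It rests on 1 of its 2 probe sets, the other having 0.13 (0.485). Fgf21, a hormone that muscle secretes under stress, rose by 0.61 (adjusted p = 0.0103), and not within replicates 2 to 4 (0.0591), without the batch term (0.0601) or without 100 µM replicate 1 (0.0637).

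Enzymes and transporters that ATF4 is known to induce were called at few genes. Of 14 genes of amino acid and one-carbon synthesis Psph, the last enzyme of serine synthesis, and Mthfd2, a mitochondrial folate enzyme, rose by 0.50 and 0.34 (adjusted p = 0.00272 and 0.0154), and neither was called without the batch term (0.0677 and 0.441). Mthfd2 was lost as well without untreated replicate 2 (0.0534) or 4 (0.0551) or 100 µM replicate 1 (0.0687). Asns, asparagine synthetase, had a log2 difference of 0.20 and did not pass (0.182). Of 20 cytosolic aminoacyl-tRNA synthetases Aars alone rose, by 0.21 (adjusted p = 0.027), and the median of the 20 was 0.08. The call of Aars was lost with replicate number as a block (0.0512) and without untreated replicate 1 (0.106), 2 (0.0511) or 4 (0.0843) or 100 µM replicate 1 (0.1), 2 (0.0717) or 4 (0.0661). Aars was also lost within replicates 2 to 4 (0.124) and without the batch term (0.139). Of 11 amino acid transporters 3 rose, and 1 did within replicates 2 to 4 or without the batch term. Of 29 genes of endoplasmic reticulum stress Herpud1 alone rose, by 0.55 (SE 0.07, adjusted p = 9.09e-05), not called without the batch term (0.356).

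The C/EBP-ATF response element, searched as TGATGNAAN on both strands, was found in 7 of 146 called rises (4.79%), 1 of 133 falls (0.752%), 150 of 6662 tested genes (2.25%) and 1052 of all 27025 (3.89%). All 7 rises are shown because each holds the same letters ttgcatca on the gene's strand, and 6 of them belong to the lists above, the other being Gadd45g, a stress-induced growth arrest gene that rose by 0.50 (SE 0.07, adjusted p = 0.00022). The windows come from RefSeq's GRCm38.p6 with the match in capitals and 25 bases to each side. They lie in order at chr1:191183411-191183469 (minus strand), chr2:119351023-119351081 (plus), chr7:126625548-126625606 (minus), chr7:45615597-45615655 (minus), chr8:94386291-94386349 (plus), chr8:111033704-111033762 (plus) and chr13:51846548-51846606 (plus).
Atf3: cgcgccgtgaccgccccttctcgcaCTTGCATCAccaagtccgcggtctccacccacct
Chac1: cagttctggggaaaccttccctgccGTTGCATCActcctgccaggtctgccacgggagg
Nupr1: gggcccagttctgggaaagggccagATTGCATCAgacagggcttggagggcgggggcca
Fgf21: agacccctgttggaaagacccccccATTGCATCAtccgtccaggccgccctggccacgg
Herpud1: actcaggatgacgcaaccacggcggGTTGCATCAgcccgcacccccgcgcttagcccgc
Aars: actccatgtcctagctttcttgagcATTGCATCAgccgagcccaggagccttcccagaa
Gadd45g: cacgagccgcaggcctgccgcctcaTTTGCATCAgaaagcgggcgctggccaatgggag
The matches start between 102 (Gadd45g) and 194 (Chac1) bases before the start site, at 111 in Atf3 and Nupr1 and at 113 in Herpud1 and Aars. The shares come from few genes and no test was made of them. The cAMP response element TGACGTCA, searched the same way, occurred in 10 of 146 rises (6.85%), 4 of 133 falls (3.01%) and 208 of 6662 tested genes (3.12%), and the AP-1 site TGANTCA in 10 (6.85%), 4 (3.01%) and 379 (5.69%).

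**Figure D3:**
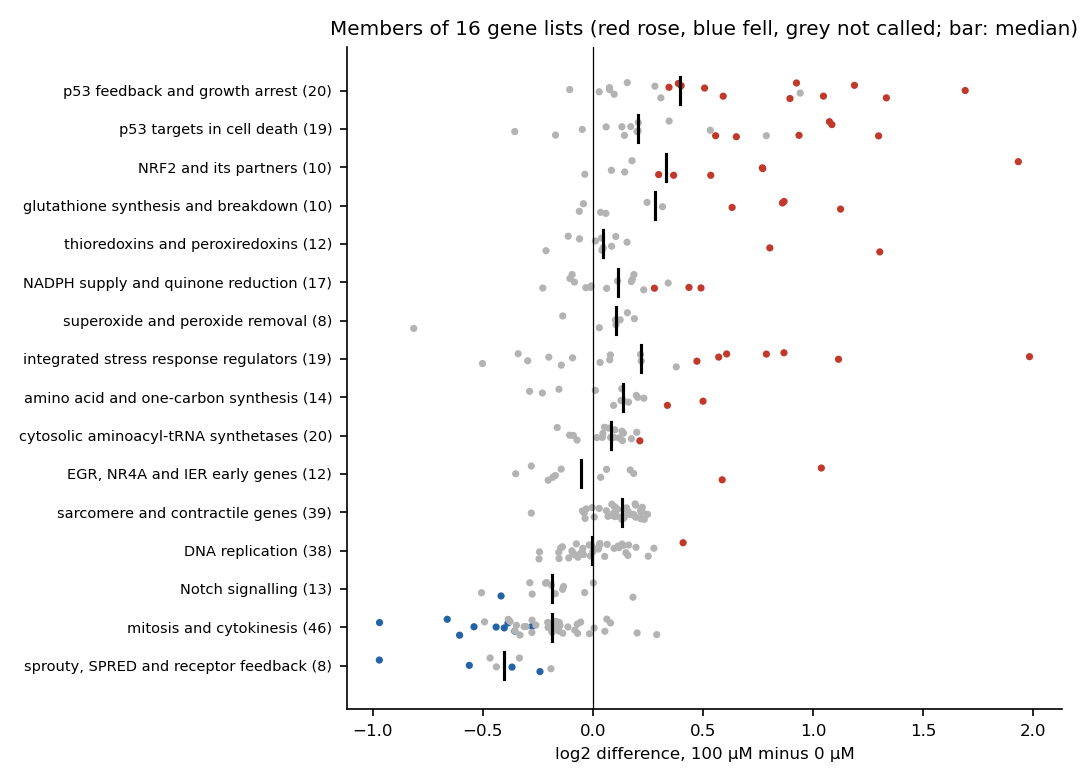
Log2 differences, 100 µM minus 0 µM, of the tested members of 16 gene lists, with 1 point per gene (red rose, blue fell, grey not called), a bar at each list's median and the number tested in brackets. The medians run from 0.40 for p53 feedback genes to -0.40 for the sprouty and receptor feedback genes.

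Early-response transcription factors responded unevenly. Myc, the growth-promoting factor, read 512, 367, 421 and 385 and then 840, 716, 706 and 819, a rise of 0.88 (SE 0.09, adjusted p = 4.22e-06) without overlap. Of 9 FOS and JUN genes and relatives Atf3, Fosl1 and Fosl2 rose (median 0.21), against 2 within replicates 2 to 4 and 1 without the batch term, and Jun had a log2 difference of 0.09 and did not pass (0.507). The call of Fosl2 (adjusted p = 0.0287) ended in both of these fits (0.208 and 0.108) and without untreated replicate 1 (0.122) or 3 (0.0734) or 100 µM replicate 1 (0.154), 2 (0.064) or 4 (0.0503). Fosl1 read 662, 255, 225 and 236 and then 866, 484, 476 and 551, so untreated replicate 1 lay above 3 of the treated arrays. Its rise of 0.90 (SE 0.16, adjusted p = 0.00171), on 1 of 2 probe sets, was not called without the batch term (0.115). Of 12 EGR, NR4A and IER genes Nr4a1 and Ier5 rose and the median was -0.05, turning to 0.02 with median centring. Within replicates 2 to 4, 1 of the 12 rose and 2 fell, with a median of -0.19, while the median on the replicate 1 arrays was 0.45. Ier5, an early gene that acts on heat shock factor 1, rose from 801, 765, 789 and 798 to 1180, 1210, 1229 and 1123, by 0.59 (SE 0.06, adjusted p = 6.23e-06). Egr1, a classic early gene of growth factor signalling, read 2924, 4562, 4138 and 4157 and then 3147, 2941, 2973 and 3163, and did not pass (log2 difference -0.35, adjusted p = 0.19). Within replicates 2 to 4 Egr1 was called lower, with a log2 difference of -0.50 (adjusted p = 0.021), and on the replicate 1 arrays the difference was 0.11. Foxq1, a forkhead factor, rose from 97, 153, 165 and 137 to 404, 378, 426 and 428, by 1.60 (SE 0.16, adjusted p = 1.41e-06), the only rise among 12 tested forkhead genes. Nfil3, a repressor linked to the circadian clock, rose by 0.70 (SE 0.11, adjusted p = 0.000329).

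Among signalling genes, Ccl2, a chemokine that draws monocytes, read 78, 79, 66 and 108 without H2O2 and 304, 332, 231 and 306 with it. Its rise was 1.84 (SE 0.21, adjusted p = 8.11e-06), with only 1 untreated array above the filter level. Of 15 chemokines and cytokines 4 rose and none fell (median 0.07). The rises included Cxcl1 and Ccl7, both under the filter level on every untreated array. Without the batch term 2 rose, and within replicates 2 to 4 also 2, with a median there of 0.02. Nfkbia, the inhibitor that NF-kB induces as feedback, rose by 0.56 (SE 0.10, adjusted p = 0.00171) on 3 of its 4 probe sets, the other having -0.19 (0.596). Ereg, an EGF receptor ligand, rose by 0.80 (SE 0.16, adjusted p = 0.0058), but its untreated replicate 1 read 536 against 231 to 259 in the others, and it was not called without the batch term (0.26). Pdk4, a kinase that turns muscle from glucose to fat oxidation, rose from 581, 647, 613 and 631 to 981, 995, 1055 and 1038, by 0.72 (SE 0.07, adjusted p = 1.48e-06), one of 3 rises among 22 genes of glycolysis and glucose uptake. The other two, the glucose transporter Slc2a1 and the hexokinase Hk2, lost their calls with replicate number as a block (0.059 and 0.0684) and without the batch term (0.597 and 0.521). Gabarapl1, an autophagosome protein, was the only rise among 14 atrophy and FOXO genes, at 0.40 (adjusted p = 0.00491), and was not called without the batch term (0.213). Of 31 tested heat shock proteins Hspa8 and Dnajb4 rose and the median was 0.13 (0.11 after quantile normalization and 0.21 with median centring). Of the 31 differences 26 were above 0. At an unadjusted p under 0.05 in limma, 11 lay higher and 2 lower, against 693 and 843 of all 8163 genes. Hspa8 was called on 1 of its 4 probe sets, the others having 0.18, -0.28 and -0.31, and Dnajb4 on 1 of 2, the other having 0.23 (0.354). The inducible Hspa1b had a log2 difference of -0.28 and did not pass (0.0801). Hspa8 was lost with replicate number as a block (0.058), after quantile normalization (0.134) and without untreated replicate 1 (0.123) or 4 (0.109) or 100 µM replicate 1 (0.162), 2 (0.064) or 3 (0.0708). Dnajb4 was lost without untreated replicate 1 (0.0897) or 3 (0.0667) or 100 µM replicate 1 (0.101), and both within replicates 2 to 4 (0.21 and 0.0683) and without the batch term (0.203 and 0.0629).

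Feedback inhibitors of receptor tyrosine kinases lay lower. Of 8 tested sprouty, SPRED and receptor feedback genes 4 fell and none rose (median -0.40), and none of the 8 differences was above 0. With median centring 2 fell and the median was -0.32, and 2 fell within replicates 2 to 4 and 1 without the batch term. Spry1, which blocks signalling to RAS and is also kept by quiescent satellite cells, read 1041, 1091, 949 and 922 without H2O2 and 438, 510, 486 and 622 with it, a fall of 0.97 (SE 0.09, adjusted p = 9.38e-07). All treated arrays lay below all untreated ones. Errfi1, an inhibitor of EGF receptors, read 1818, 1550, 1521 and 1566 and then 1592, 987, 962 and 939. Replicate 1 lay above the other arrays in both groups, and the fall of 0.56 (SE 0.08, adjusted p = 0.000123) was not called without the batch term (0.0994). Spry2, another sprouty, fell by 0.37 (adjusted p = 0.0233) and Rasa1, a RAS GTPase activator, by 0.24 (0.0355), both lost under median centring (0.0944 and 0.311) and Rasa1 with replicate number as a block (0.0593). Spry2 was also lost without untreated replicate 1 (0.0888) or 3 (0.0744) or 100 µM replicate 1 (0.0727), 3 (0.0558) or 4 (0.0509), and Rasa1 without any 1 array but 100 µM replicate 3 (0.0568 to 0.17). Within replicates 2 to 4 Spry2 and Rasa1 were both lost (0.116 and 0.12), as they were without the batch term (0.0678 and 0.194).

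Developmental signals fell at single genes. Bmp4, a bone morphogenetic protein that opposes muscle differentiation in the embryo, read 274, 472, 437 and 466 and then 118, 219, 278 and 229. Treated replicate 3 lay just above untreated replicate 1, while within every replicate number the treated array was lower, and the fall of 1.00 (SE 0.12, adjusted p = 1.12e-05) was missed without the batch term (0.0547). Id3, a BMP target that blocks basic helix-loop-helix factors, fell by 0.74 (SE 0.14, adjusted p = 0.00396), also not called without the batch term (0.0923). Id3 averaged 166 ± 35, 115 ± 7, 111 ± 24 and 99 ± 18 at 0, 1, 10 and 100 µM (SD, n = 4), so its mean was already lower at 1 µM. Tgif1, a repressor of SMAD signalling, rose by 0.37 (SE 0.06, adjusted p = 0.00142). Gas1, a hedgehog co-receptor, fell by 0.75 (SE 0.13, adjusted p = 0.00171, or 0.195 without the batch term) on 1 of its 2 probe sets. Hes1, the Notch-driven repressor, was the single call among 13 Notch genes and fell by 0.42 (SE 0.08, adjusted p = 0.00641). Its mean was already lower at the low doses. Hes1 averaged 874 ± 65, 633 ± 38, 573 ± 13 and 656 ± 68 at 0, 1, 10 and 100 µM (SD, n = 4). The median of the 13 was -0.19, and -0.11 with median centring. Of 18 genes of the Hippo pathway and YAP targets Ajuba, a LIM protein that inhibits LATS kinases, and Ccn1, a matrix protein and YAP target, fell. Ajuba read 1538, 1364, 1277 and 1516 and then 669, 854, 835 and 936, a fall of 0.80 (SE 0.11, adjusted p = 8.68e-05), and Ccn1 fell by 0.61 (SE 0.08, adjusted p = 8.51e-05, or 0.17 without the batch term).

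Myod1, the basic helix-loop-helix factor that commits cells to muscle, read 2223, 1983, 1917 and 1964 without H2O2 and 1008, 1470, 1151 and 1356 with it. The fall was 0.71 (SE 0.10, adjusted p = 9.05e-05), with all treated arrays below all untreated arrays. Of 15 tested myogenic factors it and Zic1 fell and none rose, with a median of -0.08 that turned to 0.001 with median centring. Zic1, a zinc-finger factor, fell by 0.61 (0.0102), but not without untreated replicate 1 (0.0569) or 100 µM replicate 1 (0.0548). Within replicates 2 to 4 Zic1 was not called either (0.0902). The structural genes of muscle did not pass the test. In limma none of 39 sarcomere and contractile genes passed, and 11 lay higher and none lower at an unadjusted p under 0.05. Their median was 0.13, or 0.02 after quantile normalization and 0.21 with median centring. None of 12 acetylcholine receptor and synapse genes or of 19 calcium-handling genes passed, with 2 lower and none higher in each at an unadjusted p under 0.05. Acta1, skeletal alpha-actin, read 8431 to 10762 and then 9767 to 12164, with a log2 difference of 0.18 (adjusted p = 0.41) that turned to -0.0015 after quantile normalization.

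Genes of mitosis and cytokinesis, which mark cycling mononucleated cells in such cultures, fell at 9 of 46 tested members and rose at none (20 lower and none higher at an unadjusted p under 0.05). Their median was -0.19, or -0.11 with median centring, which left 6 falls, and 5 fell without the batch term. Kif18a, a kinesin that aligns chromosomes, read 168, 157, 147 and 176 and then 87, 111, 80 and 60, a fall of 0.97 (SE 0.20, adjusted p = 0.00645). Ect2, which triggers the cleavage furrow, fell by 0.66 (SE 0.12, adjusted p = 0.0017), Aspm, a spindle pole protein, by 0.60 (SE 0.09, adjusted p = 0.000234), and Kif2c, a microtubule depolymerising kinesin, by 0.54 (SE 0.08, adjusted p = 0.000139). The arrays did not overlap in any of these 4 genes, Kif18a was above the filter level on 1 of the 4 treated arrays, and Aspm's other probe set had -0.33 (0.369). The summed signal of the list was 35460 to 39002 on untreated arrays and 31622 to 32953 at 100 µM. In whole-culture RNA, fewer cycling cells and less of these mRNAs per cell cannot be told apart. Markers of reserve and satellite cells, the undifferentiated cells of such cultures, lay lower at 5 and higher at none of 13 tested genes at an unadjusted p under 0.05. Of these Spry1 alone was called (2 fell within replicates 2 to 4), their median was -0.16 (-0.08 with median centring), and their summed signal was 11591 to 14187 on untreated arrays and 11896 to 13220 at 100 µM. Their part in the result was not tested. The 38 tested DNA replication genes had a median of -0.003 (0.08 with median centring) and 1 call, Cdt1, a licensing factor, which rose by 0.41 (adjusted p = 0.00947), but not without the batch term (0.28) or without untreated replicate 1 (0.0509). Among 31 cyclins and CDK inhibitors 2 rose and 4 fell (2 fell with median centring, quantile normalization or the replicate block), among them Cdkn2d, the p19 inhibitor of CDK4 and CDK6, by 0.44 (SE 0.07, adjusted p = 0.000353) and Ccng2, cyclin G2, by 0.39 (SE 0.07, adjusted p = 0.00241). Ccng2 was called on 1 of its 2 probe sets, the other having -0.06 (0.796).

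The largest fall belonged to a gene of T cells. Zap70, a T-cell receptor kinase, read 667, 397, 352 and 362 without H2O2 and 246, 138, 45 and 45 with it, a log2 difference of -2.23 (SE 0.38, adjusted p = 0.0014). All treated arrays lay below all untreated ones, and replicates 3 and 4 at 100 µM lay under the filter level. Zap70 averaged 444 ± 150 without H2O2 and was already lower at 1 µM (235 ± 83) and 10 µM (204 ± 64, SD, n = 4). Its other tested probe set had a log2 difference of 0.30 and did not pass (0.531), so the probe sets disagree. Of the other 4 tested leukocyte markers none passed. Among RNA-processing genes Pnrc2, an adaptor of nonsense-mediated decay, fell by 0.62 (SE 0.08, adjusted p = 8.51e-05), Clk2, a kinase of splicing factors, by 0.48 (SE 0.09, adjusted p = 0.004), and Taf4, a subunit of the basal factor TFIID, by 0.64 (SE 0.09, adjusted p = 0.000262). Pnrc2 and Taf4 rest on 1 of 2 probe sets each, the others having -0.26 (0.458) and -0.43 (0.206).

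Large groups of housekeeping genes showed few calls. In limma none of 81 oxidative phosphorylation subunits, 74 mitochondrial ribosomal proteins, 42 ribosome biogenesis genes or 23 cholesterol genes passed. At an unadjusted p under 0.05, 14, 4, 9 and 0 of them lay higher and 0, 3, 2 and 2 lower, against 693 higher and 843 lower of all 8163 genes. Of the other groups, 1 of 45 cytosolic ribosomal proteins and 1 of 36 proteasome subunits rose. At an unadjusted p under 0.05, 16 of the 45 ribosomal proteins lay higher and 1 lower. By the same count 8 of the 36 proteasome subunits lay higher and none lower. The ribosomal proteins had a median of 0.17, which was 0.02 after quantile normalization and 0.25 with median centring. The proteasome subunits had 0.11 (0.08 and 0.19). Both calls, Rpl22l1 and Psmd11, ended with replicate number as a block (0.0548 and 0.0653), within replicates 2 to 4 (0.155 and 0.0935) and without the batch term (0.649 and 0.113). Of 17 hypoxia genes 4 rose, and with replicate number as a block or within replicates 2 to 4 only 1 did.

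The log2 differences on the replicate 1 arrays were set beside those of replicates 2 to 4. A limma contrast of the change in replicate 1 against the mean change in replicates 2 to 4 called 375 genes (4.59% of those tested) and 628 probe sets (4.37%), of which 361 changed more upward in replicate 1 and 267 less. Replicate 1 is 1 array per dose, so the spread in this fit comes from replicates 2 to 4 of all doses and the single arrays are assumed to vary as those do. The noise of a single array and a different response in replicate 1 cannot be told apart, and the count moved between 397 and 1325 probe sets with the scaling. Among the 179 rises replicate 1 had the larger difference in 126, and among the 157 falls it lay further down in 110. No such count was made over all tested genes, and the calls themselves use the replicate 1 arrays. The median difference over all tested genes was -0.01 in replicate 1 and -0.02 in replicates 2 to 4. The contrast passed for 17 of the 336 called genes, 12 rises and 5 falls. Srxn1, Gsta4 and Txnrd1, enzymes of thiol repair and lipid peroxide handling, had the smaller difference in replicate 1. The log2 difference of Srxn1 was 0.66 in replicate 1 and 1.52 in the others (contrast -0.86, adjusted p = 0.0204). Gsta4 had 0.55 and 1.22 and Txnrd1 0.48 and 0.91, and for these 2 genes the contrast did not pass (0.0703 and 0.0955). Tcim, Nr4a1, Bcl2l11, Atf4 and Nfe2l2 had the larger difference there. Tcim, a regulator of WNT signalling, had log2 differences of 2.49 in replicate 1 and 0.71 in the others (adjusted p of the contrast 0.00644), and Nr4a1, an orphan nuclear receptor and early gene, 2.05 and 0.70 (0.0496). Bcl2l11 had 1.46 and 0.41 (0.0134), Atf4 0.96 and 0.31 (0.00761) and Nfe2l2 0.66 and 0.27 (0.0441). Nr4a1 read 242, 367, 303 and 325 without H2O2 and 1005, 585, 535 and 495 with it, rose by 1.04 (adjusted p = 0.00562) over all arrays and missed the threshold within replicates 2 to 4 (0.0579). Bcl2l11 rose by 0.67 (0.00948) on 1 of its 3 probe sets and missed it there (0.0607) and without untreated replicate 1 (0.0542). Within replicates 2 to 4 alone, 123 genes rose (1.51%) and 102 fell (1.25%).

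**Figure D4:**
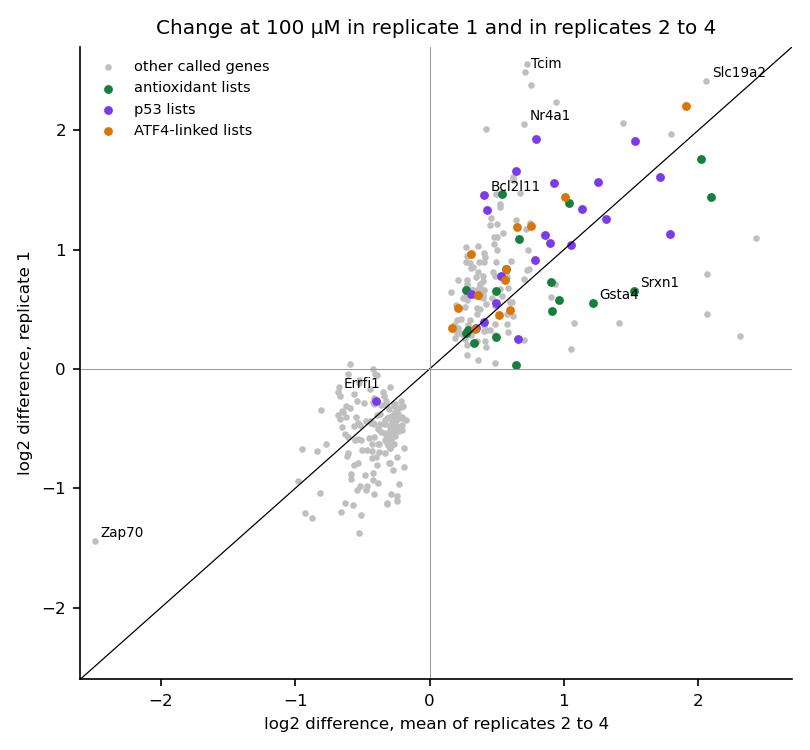
Log2 difference at 100 µM in replicate 1 (vertical axis) against the mean of replicates 2 to 4 (horizontal axis) for the 336 called genes, coloured by antioxidant, p53 and ATF4-linked lists, with the line of equality. Srxn1 (0.66 against 1.52) lies under the line and Tcim (2.49 against 0.71) and Nr4a1 (2.05 against 0.70) above it.

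The other doses of the series place some of these levels. Hmox1 averaged 358 ± 24 at 1 µM and 408 ± 47 at 10 µM, close to 411 ± 56 without H2O2, then 1593 ± 210 at 100 µM and 1127 ± 178 at 1000 µM (SD, n = 4). Chac1 averaged 860 ± 87 without H2O2, 1901 ± 423 at 100 µM and 396 ± 79 at 1000 µM, below the untreated arrays. Foxq1 averaged 138 ± 30, 409 ± 23 and 117 ± 34, Srxn1 351 ± 120, 835 ± 2 and 384 ± 53, and Gclc 590 ± 84, 1073 ± 104 and 473 ± 43 at the same 3 doses, so for these 4 genes 100 µM gave the highest of the 3 means. Nr4a1 and Tcim ran the other way, with means at 1000 µM of 1219 ± 145 and 1441 ± 295 against 655 ± 236 and 292 ± 99 at 100 µM. Some falls had lower means at 1 and 10 µM already, among them Zap70, Hes1 and Id3. At 0, 1, 10 and 100 µM Bmp4 averaged 412 ± 93, 299 ± 74, 303 ± 76 and 211 ± 67. Errfi1 averaged 1614 ± 137, 1435 ± 222, 1244 ± 252 and 1120 ± 315. Others stayed near the untreated mean at the low doses. Kif18a averaged 162 ± 13, 153 ± 20, 172 ± 51 and 85 ± 21, and Aspm 521 ± 45, 546 ± 51, 533 ± 29 and 343 ± 26. These levels are given as a description, and differences that involve 1, 10 or 1000 µM were not tested here.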

How the data were processed

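The authors deposited linear intensity values per probe set from Affymetrix Microarray Suite 5.0 (MAS5 in the submitters' processing notes, and named in the design text), scaled to a 2% trimmed mean of 500.1 to 500.2 on each array. Each array was rescaled to 500, floored at 1 and taken to log2. Of 22690 probe sets 64 controls were left out, and 14387 that reached their array's 40th percentile (signals of 81.7 to 106) on at least 4 of the 20 arrays were tested. The number of arrays limits the precision. limma 3.58.1 in R 4.3.3 (lmFit, eBayes with an intensity trend) fitted 19 arrays of all 5 doses, with replicate 1 against 2 to 4 as a batch term and 13 residual degrees of freedom. The 10 µM array with no number in its title was left out of this fit. It was kept in the fit without the batch term and in the fit that placed it with replicate 1. P-values were adjusted by Benjamini-Hochberg over all tested probe sets, and changes are called at an adjusted p under 0.05. The script was tested on simulated data.

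Gene symbols came from the platform annotation, matched by Entrez identifier to RefSeq (GRCm38.p6). Of the probe sets that are no controls, 20380 had 1 symbol, 691 several and 1555 none. Where a gene had several tested probe sets, the brightest on average stands for it. The comparison, the 68 gene lists and the naming rule were chosen with earlier results of these data known. The rule names the 20 largest rises and 15 largest falls with all 4 same-numbered differences in 1 direction and bright arrays, up to 4 called members per list, and some members that did not pass. Nfe2l2, Atf4, Nupr1 and Gadd45g were named after their values were seen. Not every gene the rule allows is described. Promoters were found for 115 of 137 named genes.

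Deviations from the group means of untreated and 100 µM arrays of the same replicate number correlated at 0.494, 0.114, 0.218 and 0.261 for numbers 1 to 4. Across numbers, replicates 2 to 4 correlated at 0.136 to 0.218, and replicate 1 with the others at -0.364 to -0.244. These values set replicate 1 apart and do not show that numbers 2 to 4 pair the arrays. This rests on the data alone. The main fit holds only the batch term, and the replicate block was run as an alternative. The alternatives are the batch term, the unnumbered array, the replicate block, replicates 2 to 4, the 8 arrays alone, scaling, floor, filter, variance trend, array weights, leaving out each array, and the study's crossed rule (all 16 pairs in 1 direction and a mean fold over 1.75).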

Additional observations from a re-analysis of the deposited data

Results flagged for a closer look

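In groups of 4 arrays, a value was singled out where the gap from the highest or lowest array to its nearest neighbour took a share of the group's whole range above Dixon's 95% critical value. Of 274 such groups tested over the named genes, 29 exceeded it, against about 1 in 20 by chance, and in 25 of the 29 the array apart was replicate 1. On the untreated arrays replicate 1 was lowest for Pvt1 (a gap of 0.908 of the range), Bmp4 (0.861), Slc3a2 (0.948), Slc7a5 (0.861), Coasy (0.845), Rpl22l1 (0.847), H1f2 (0.924) and Atf4 (0.924), and highest for Fosl1 (0.881), Errfi1 (0.838), Ereg (0.864), Vegfa (0.998) and Hk2 (0.925). At 100 µM replicate 1 was lowest for Gas1 (0.834), Txnrd1 (0.840), Pgd (0.863), Me1 (0.837), Mt1 (0.862), Rasa1 (0.862) and H1f2 (0.925), and highest for Ppp1r15a (0.909), Mthfd2 (0.835), Errfi1 (0.906), Vegfa (0.851) and Gadd45g (0.885). The other 4 were untreated replicate 4 for Rasa1 (0.956) and Zfp82 (0.877), both highest, 100 µM replicate 2 for Tsc1 (0.905, lowest) and 100 µM replicate 4 for Keap1 (0.930, highest). In Errfi1, Vegfa and H1f2 replicate 1 stood apart in the same direction at both doses.

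For 10 named genes limma's contrast of the change at 100 µM in replicate 1 against that in replicates 2 to 4 passed at an adjusted p under 0.05 over all tested probe sets. The log2 change in replicate 1 minus that in the others was 1.78 for Tcim, 1.35 for Nr4a1, 1.05 for Bcl2l11, 0.67 for Dusp1, 0.65 for Atf4, 0.62 for Klf9, 0.49 for Errfi1 and 0.39 for Nfe2l2, and -0.86 for Srxn1 and -0.87 for Col4a5. Replicate 1 is a single array at 0 µM and at 100 µM and supplies no spread of its own, so the contrast assumes that it varies as replicates 2 to 4 do. A different response in that batch cannot be told apart from the noise of 1 array.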

How the results depend on the processing

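Against 271 rises and 266 falls among probe sets, the fit without the batch term gave 124 and 51. That fit also held the unnumbered array. Array weights gave 453 and 550, and the study's crossed rule without its detection calls gave 76 and 21. Leaving out 1 array at a time gave 149 to 237 rises and 107 to 229 falls. Falls moved to 74 with median centring and to 163 within replicates 2 to 4. The unnumbered array, the 8 arrays alone, quantile normalization, the floor, both filters and the variance trend kept both counts within 1.5 times. With the replicate block 220 probe sets rose and 180 fell. Of 128 named called genes 24 lost their call with the block, 66 without the batch term, 18 with median centring and 90 under the crossed rule. The block changed no other call of a named gene. The contrast of replicate 1 with replicates 2 to 4, tried with other scalings after the data were seen, called 397 probe sets with median centring, 1325 after quantile normalization and 1011 with the 8 arrays alone, against 628. The difference of Acta1 turned to -0.0015 after quantile normalization, the only reversal among named genes, in a gene that was not called. The causes were not tested. Signals under 81.7 to 106, by array, lay below the filter, so changes of dim genes such as Ddit4l, Fas, Atf3 and Ccl2 are inexact.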
